A study of Homo sapiens with 9 samples.

Results

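The genes described here are 10 components of bone morphogenetic protein (BMP) signalling in HaCaT keratinocytes: the receptors BMPR1B, BMPR1A, BMPR2, ACVR1 and ACVR2A, the ligands BMP2, BMP4 and BMP7, and the target genes ID1 and ID3. They were listed by name around BMPR1B, which was chosen on its lower signal in WT-actin cells than in the parental line, so that all values of BMPR1B are a description without a test. The annotation table used here listed a probe set for 9 of the 10 genes, with 21 probe sets among the 54613 that were not controls. BMPR1A, a main type I receptor, was not analysed here. Among 19775 genes, each represented by its brightest probe set, these are 9.

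HaCaT is a spontaneously immortalized line of human epidermal keratinocytes. RNA was hybridized to 9 Affymetrix arrays, 3 each of NLS-actin cells, WT-actin cells and the parental line. NLS-actin cells stably carried GFP-tagged β-actin with a nuclear localization sequence, WT-actin cells carried GFP-tagged β-actin without it, and parental cells carried neither. Both actin lines were populations selected with the drug G418 after plasmid transfection, a step not described for the parental line. In a comparison with parental cells the transgene and the selection therefore cannot be told apart. No further line of either construct was among the arrays. Between the actin lines, the construct and other differences of the lines cannot be told apart either. Whether the 3 arrays of a line came from separately grown cultures is not stated, and p-values measure the spread between these arrays, which may be technical.

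BMPs are secreted dimers that bring type I receptors (BMPR1A, BMPR1B, ACVR1) and type II receptors (BMPR2, ACVR2A) together at the cell surface. The type II receptor activates the type I kinase, which phosphorylates SMAD1, SMAD5 and SMAD9, and these enter the nucleus with SMAD4. The ID genes are direct targets and encode proteins that bind basic helix-loop-helix transcription factors and keep them from DNA. In skin, BMP signals are known for their part in specifying epidermis, in differentiation and in the hair follicle cycle.

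The 250 bases before the annotated start are shown for BMPR1B, the receptor around which the list was drawn, and for the target genes ID1 and ID3, whose signals moved together over the arrays. They are from RefSeq on GRCh38.p14, at chr4:94757705-94757954 on the plus strand for BMPR1B (the first of 3 annotated starts), chr20:31605039-31605288 on the plus strand for ID1 and chr1:23559502-23559751 on the minus strand for ID3, each written 5′ to 3′ along its gene. Capitals mark matches on either strand to GGCGCC and CAGAC, letters that SMAD proteins can bind, to the TATA box written TATAAA, and to the motif CCAAT.
BMPR1B: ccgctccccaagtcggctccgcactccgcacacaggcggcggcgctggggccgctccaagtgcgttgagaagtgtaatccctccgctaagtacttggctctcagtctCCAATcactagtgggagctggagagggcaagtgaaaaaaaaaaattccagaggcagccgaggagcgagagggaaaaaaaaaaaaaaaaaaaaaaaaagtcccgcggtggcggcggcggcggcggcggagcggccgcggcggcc
ID1: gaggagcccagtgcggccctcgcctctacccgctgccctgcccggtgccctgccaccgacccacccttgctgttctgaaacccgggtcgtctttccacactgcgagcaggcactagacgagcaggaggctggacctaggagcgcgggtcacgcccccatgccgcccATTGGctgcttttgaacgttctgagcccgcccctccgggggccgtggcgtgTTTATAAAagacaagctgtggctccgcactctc
ID3: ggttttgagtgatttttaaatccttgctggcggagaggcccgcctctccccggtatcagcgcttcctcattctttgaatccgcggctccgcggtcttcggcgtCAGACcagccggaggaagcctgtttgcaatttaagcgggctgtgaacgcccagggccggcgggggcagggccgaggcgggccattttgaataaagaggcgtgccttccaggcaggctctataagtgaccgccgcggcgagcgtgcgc
GGCGCC was found in none of the 3 windows, although 16.4 percent of the 35116 windows of this length held it. CAGAC was found once, in the ID3 window, 147 to 143 bases before the start, and 38 percent of all windows held this short motif. ID1 held TATAAA on the plus strand 31 to 26 bases before its start, with an overlapping match on the minus strand, and 10.7 percent of all windows held it. CCAAT occurred in the windows of BMPR1B and, on the minus strand, ID1, against 32 percent of all windows. These are matches of letters and not measured binding sites. BMP2 and BMP7 had no entry among the promoter sequences used here.

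Signals are MAS5 intensities, which are linear, and the trimmed mean of every array was 500. The median signal of an array lay between 29.7 and 43.3. KRT5 and KRT14, keratins made by basal keratinocytes, had signals of 6373 to 13830 on every array. Summed signals of 6 keratinocyte markers were 36325 to 45952 in NLS-actin cells, 31503 to 48226 in WT-actin cells and 27802 to 39582 in the parental line, against 475 to 1184, 304 to 1132 and 481 to 964 for 6 fibroblast markers, mostly COL1A1. Sums of 4 endothelial markers stayed at or below 209. The sum of 3 leukocyte markers was 90.3 to 171 in NLS-actin cells, 28.1 to 43.8 in WT-actin cells and 44.2 to 122 in parental cells, mostly CD14 on every array but WT-actin replicate 1, while PTPRC and CD3E stayed at or below 18.5. Among 4 melanocyte markers, the sum of 1741 to 2477 in NLS-actin cells, 1769 to 2347 in WT-actin cells and 2502 to 2770 in parental cells was nearly all MITF, and TYR and MLANA stayed at or below 16.8. No marker was listed at 0, and the part of other cell types in the results was not tested. In each line 1 array stood apart from the other 2 along the main axis of variation within lines, which held 57.2 percent of that variation: NLS-actin replicate 2, WT-actin replicate 1 and parental replicate 2. The 3' to 5' ratio of the ACTB control probe sets, a measure that rises as RNA or its copies become truncated, was 12.8, 14.9 and 7.96 on these arrays, the highest of each line, against 6.96 and 7.98 in the other NLS-actin, 3.82 and 6.79 in the other WT-actin and 4.998 and 6.28 in the other parental arrays. The same ratio for GAPDH did not follow this: it was 1.64, 3.07 and 1.40 on these arrays, the lowest of its line in NLS-actin and parental cells (1.69 and 1.95, and 1.60 and 1.41, on the others) and the highest in WT-actin cells (1.52 and 1.39 on the others). Both actin lines carried a β-actin transgene, and its part in the ACTB ratio was not tested.

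BMPR1B, a type I receptor, had its lowest signals in WT-actin cells and its highest in the parental line, with NLS-actin cells between them. Its brightest probe set (229975_at) had signals of 41.0, 66.6 and 79.4 in NLS-actin cells, 24.9, 16.9 and 14.2 in WT-actin cells, and 261, 159 and 159.8 in parental cells. The 3 lines did not overlap on this probe set, and all 3 WT-actin values were below the median signal of every array, so that they lie in the dim range. The means were 62.35 ± 19.55, 18.67 ± 5.53 and 193 ± 58.8 (SD, n = 3 each). Relative to the parental line the log2 difference was -3.37 in WT-actin cells, 10.3-fold lower in geometric means, and -1.64 in NLS-actin cells, 3.12-fold lower. It was 1.73 higher on the log2 scale in NLS-actin cells than in WT-actin cells. In RNA of whole cultures, fewer cells that express a gene and less RNA per cell cannot be told apart.

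A dimmer BMPR1B probe set (242579_at) had signals of 27.7, 36.7 and 33.3 in NLS-actin cells, 4.29, 7.76 and 15.1 in WT-actin cells and 34.4, 62.3 and 82.1 in parental cells. WT-actin cells were below both other lines on it, and the NLS-actin and parental arrays overlapped. On the third (210523_at) signals were 5.98 to 28.7, 0.682 to 7.35 and 6.85 to 18.0 in NLS-actin, WT-actin and parental cells, and all lines overlapped. The log2 difference between WT-actin and parental cells was -2.82 and -1.99 on these probe sets, and the difference between NLS-actin and parental cells was -0.79 and -0.11. Averaged over the 3 probe sets it was -2.73 for WT-actin and -0.85 for NLS-actin cells, so that the intermediate level in NLS-actin cells rested mainly on the brightest probe set.

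**Figure D1:**
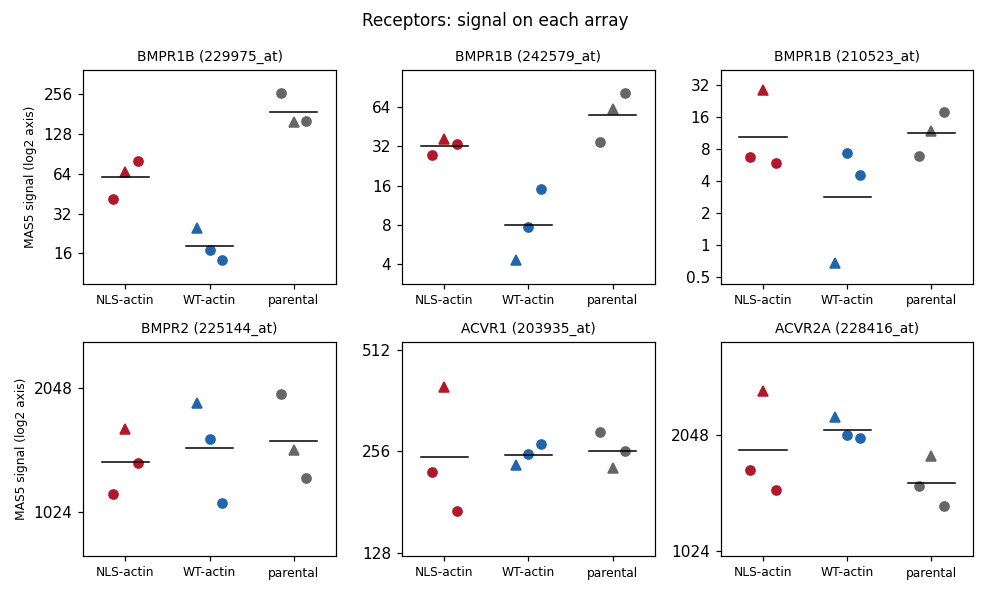
Signals of the 3 probe sets of BMPR1B and the brightest probe sets of BMPR2, ACVR1 and ACVR2A (MAS5 signal, log2 axis) in NLS-actin, WT-actin and parental cells, 3 arrays each. Points are arrays, triangles are the 3 arrays that stood apart, and bars are geometric means of a line. The brightest BMPR1B probe set separates the 3 lines, at 14.2 to 24.9 in WT-actin and 159 to 261 in parental cells, whereas the lines overlap for BMPR2 and ACVR1.

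None of the other receptors was called in any comparison. BMPR2, the main type II receptor of BMPs, had signals of 1129, 1626 and 1347 in NLS-actin cells, 1883, 1538 and 1072 in WT-actin cells and 1972, 1445 and 1238 in parental cells, and all lines overlapped. Its log2 fold change was -0.17 in NLS-actin cells (95 percent confidence interval -0.69 to 0.35) and -0.06 in WT-actin cells (-0.58 to 0.46) against the parental line. Of its other 5 probe sets, 231873_at was lower in both actin lines without overlap, at 15.8 to 19.1 in NLS-actin cells, 15.7 to 22.0 in WT-actin cells and 25.2 to 32.0 in parental cells, all dim signals. The dimmest, 1556075_at, was lower without overlap in WT-actin cells, at 3.30, 12.7 and 1.66, against 13.1, 24.3 and 22.0 in parental cells, a log2 difference of -2.22 that did not pass over all probe sets (limma adjusted p = 0.793), and its NLS-actin signals of 14.4, 31.5 and 8.12 overlapped with those of parental cells. The other 3 overlapped in both comparisons with the parental line. Of all genes by their brightest probe sets, 7.50 percent were lower without overlap in NLS-actin and 7.60 percent in WT-actin against parental cells.

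ACVR1, a type I receptor that also binds activins, had signals of 222, 399 and 170.3 in NLS-actin cells, 234, 251 and 269 in WT-actin cells and 292, 229 and 256 in parental cells. The lines overlapped, with log2 fold changes of -0.06 (-0.71 to 0.59) in NLS-actin and -0.04 (-0.69 to 0.61) in WT-actin cells against parental cells. ACVR2A, a type II receptor shared by activins and BMPs, had signals of 1666, 2663 and 1480 in NLS-actin cells, 2280, 2048 and 2021 in WT-actin cells and 1512, 1815 and 1340 in parental cells. All 3 WT-actin arrays were above all 3 parental arrays, with a log2 fold change of 0.45 that did not pass the test (-0.01 to 0.91, limma adjusted p = 0.75). A second ACVR2A probe set had log2 fold changes of 0.05 in NLS-actin and 0.06 in WT-actin relative to parental cells. Differences within these intervals were not detectable with 3 arrays a line. The intervals carry no adjustment over all genes, so larger differences may also have gone uncalled.

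BMP7 was the 1 ligand called between the actin lines in the fit over all arrays. It is a BMP that can bind ACVR1 and BMPR1B among the type I receptors, with ACVR2A and BMPR2 as type II partners. Its brightest probe set (209590_at) had signals of 1847, 3859 and 1971 in NLS-actin cells, 942, 655 and 472 in WT-actin cells and 882, 1752 and 891 in parental cells. All NLS-actin arrays were above all arrays of both other lines, the lowest NLS-actin value being close to the highest parental one, and WT-actin and parental arrays overlapped. The means were 2559 ± 1128, 689.7 ± 237 and 1175 ± 499.8 (SD, n = 3 each).

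NLS-actin cells had 3.64-fold more BMP7 signal than WT-actin cells, a log2 fold change of 1.86 with a standard error of 0.35 (95 percent confidence interval 1.11 to 2.62), and the difference passed the test (limma adjusted p = 0.0305 over all genes). BMP7 was the 1 member of 8 called in this comparison, in which 0.728 percent of all genes were called in either direction, 0.389 percent as higher and 0.339 percent as lower. Against the parental line the log2 fold change of BMP7 was 1.12 in NLS-actin cells (0.36 to 1.87, adjusted p = 0.435) and -0.75 in WT-actin cells (-1.50 to 0.01, adjusted p = 0.75), and neither passed. In a fit that paired NLS-actin and parental arrays by replicate number (replicate block), the difference between these lines passed (adjusted p = 0.000306, against 0.000306 to 1 over its 21 alternatives), and this fit called 1.91 percent of all genes. The pairing was chosen from the residuals of these same arrays, which favours a lower p, so this pass is no added support. Both comparisons of NLS-actin cells use the same 3 NLS-actin arrays. The call against WT-actin cells held in 10 of 20 alternatives (adjusted p 0.00198 to 0.607) and in 3 of the 9 fits that left out 1 array, while the log2 fold change in those 9 fits was 1.53 to 2.12. It was lost without any 1 of the NLS-actin arrays, without WT-actin replicate 2 or 3, or without parental replicate 1 (adjusted p 0.0569 to 0.134).

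All 4 BMP7 probe sets had positive log2 differences between NLS-actin and WT-actin cells. On 209591_s_at signals were 532, 899 and 545 in NLS-actin cells, 119, 156 and 109 in WT-actin cells and 322, 376 and 277 in parental cells, and the 3 lines did not overlap. This probe set was 2.34 higher on the log2 scale in NLS-actin than in WT-actin cells (adjusted p = 0.00114 over all probe sets, limma), 0.99 higher in NLS-actin than in parental cells (adjusted p = 0.372) and fell by 1.35 in WT-actin against parental cells without passing the test (adjusted p = 0.112). On 211259_s_at signals were 126 to 223, 59.6 to 67.2 and 91.2 to 149 in NLS-actin, WT-actin and parental cells, and WT-actin arrays lay below both other lines. The dimmest probe set, 211260_at, at 16.9 to 65.4 over all arrays, overlapped in all comparisons.

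**Figure D2:**
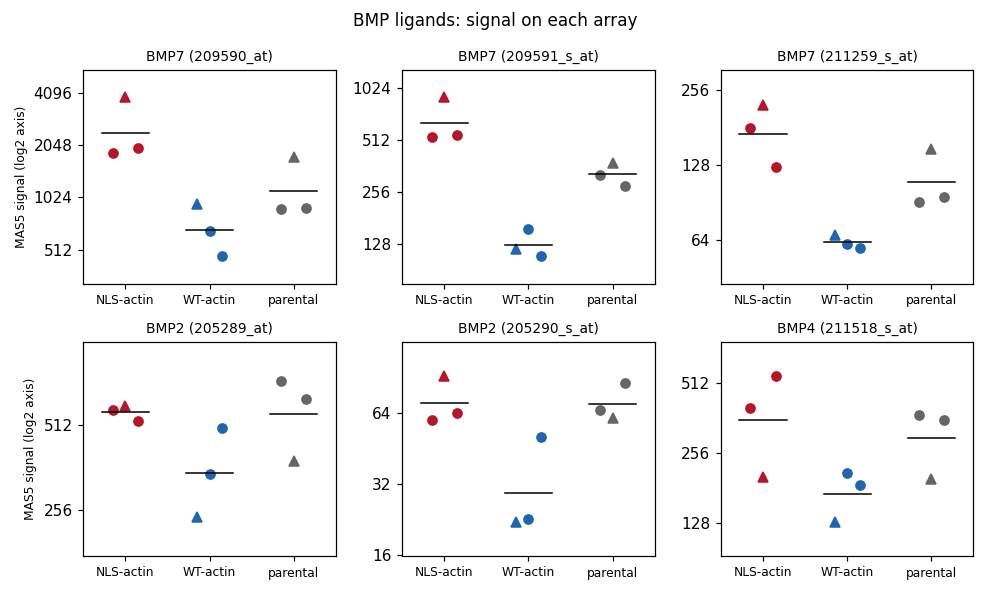
Signals of the 3 brighter BMP7 probe sets, both BMP2 probe sets and that of BMP4 (MAS5 signal, log2 axis) in NLS-actin, WT-actin and parental cells, 3 arrays each. Points are arrays, triangles are the 3 arrays that stood apart, and bars are geometric means of a line. On its brightest probe set BMP7 is at 1847 to 3859 in NLS-actin cells, above all arrays of the other lines.

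BMP2 and BMP4, closely related ligands that bind BMPR1A and BMPR1B with high affinity, were not called in any comparison. BMP2 (205289_at) had signals of 578, 595 and 528 in NLS-actin cells, 244, 344 and 499 in WT-actin cells and 727, 380.3 and 629 in parental cells. The NLS-actin arrays were all above the WT-actin arrays, with a log2 fold change of 0.71 (0.07 to 1.34, limma adjusted p = 0.462), and WT-actin and parental arrays overlapped (-0.69, -1.32 to -0.05, adjusted p = 0.714). Its second probe set (205290_s_at), with 59.3, 91.2 and 63.5 in NLS-actin cells, 22.2, 22.8 and 50.2 in WT-actin cells and 65.4, 60.7 and 85.1 in parental cells, had WT-actin arrays below both other lines.

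BMP4 (211518_s_at) had signals of 399.9, 203 and 549.7 in NLS-actin cells, 129.9, 210.3 and 186 in WT-actin cells and 372, 199 and 355 in parental cells. All lines overlapped, since the lowest NLS-actin array and the lowest parental array were at the level of WT-actin cells. The log2 fold change was 1.04 in NLS-actin against WT-actin cells (0.22 to 1.87, adjusted p = 0.357), 0.25 in NLS-actin and -0.79 in WT-actin relative to parental cells. Those 2 low arrays are NLS-actin replicate 2 and parental replicate 2, which stood apart. Without the 3 arrays that stood apart, NLS-actin against WT-actin cells gave a log2 fold change of 1.24 and BMP4 was called (adjusted p = 0.0462, against 0.0462 to 1 over its 19 alternatives). These arrays were picked by the variation within lines of these same data, so this call is no added support.

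ID1 and ID3 were not called in any comparison, and their signals differed more between the arrays of a line than between lines. ID1 (208937_s_at) had signals of 1021, 2881 and 1089 in NLS-actin cells, 1771, 983 and 462 in WT-actin cells and 1135, 2802 and 1004 in parental cells. ID3 (207826_s_at) had signals of 1097, 4050 and 1082 in NLS-actin cells, 1996, 1212 and 1040 in WT-actin cells and 1325, 4231 and 1336 in parental cells. In each line the highest value of both genes was on the array that stood apart, and all lines overlapped.

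The log2 fold change of ID1 was 0.00 in NLS-actin cells (-1.14 to 1.14) and -0.66 in WT-actin cells (-1.80 to 0.47) against the parental line. For ID3 it was -0.21 (-1.36 to 0.94) in NLS-actin cells and -0.52 (-1.67 to 0.62) in WT-actin cells. Between NLS-actin and WT-actin cells ID1 differed by 0.67 (-0.47 to 1.80) and ID3 by 0.31 (-0.84 to 1.46). These intervals are wider than those of BMP7, and no difference in ID1 or ID3 was detectable with 3 arrays a line. Without the 3 arrays that stood apart, the ID1 values were -0.02 and -0.66 against the parental line and those of ID3 -0.29 and -0.24, in NLS-actin and WT-actin cells.

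**Figure D3:**
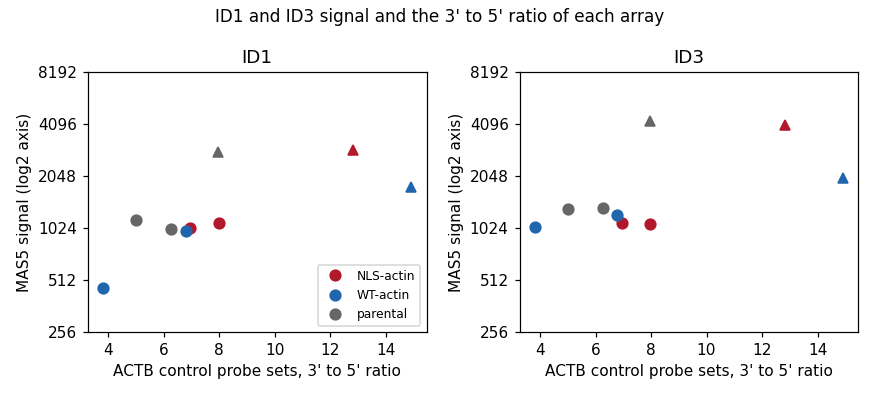
Signals of ID1 and ID3 (vertical, MAS5 signal on a log2 axis) against the 3' to 5' ratio of the ACTB control probe sets (horizontal) in NLS-actin, WT-actin and parental cells, each point an array and each triangle the array of a line that stood apart. In all 3 lines the triangle is the highest point for both genes, for ID1 at 2881, 1771 and 2802.

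The array that stood apart exceeded the geometric mean of the other 2 arrays of its line by factors of 2.73, 2.63 and 2.63 for ID1 and 3.72, 1.78 and 3.18 for ID3 in NLS-actin, WT-actin and parental cells. BMP7 was also highest on that array in every line, by factors of 2.02, 1.69 and 1.98, as was ACVR2A, by 1.70, 1.12 and 1.27. BMP4 was lowest on it in every line, at 0.43, 0.66 and 0.55 of the geometric mean of the others. Thus 4 of 9 members were highest and 1 was lowest on that array in all 3 lines, against 15.5 percent and 9.20 percent of all genes, and the other 4 were mixed. Within each line the ACTB ratio, the fibroblast sum and the keratinocyte sum were highest on the same array (1184, 1132 and 964 for fibroblast markers, against at most 842 on any other array, and 45952, 48226 and 39582 for keratinocyte markers, against at most 37364), whereas the GAPDH ratio was highest on it in WT-actin cells only. The part of these measures in the signals was not tested. Over the 9 arrays the log2 signals of ID1 and ID3 correlated at r = 0.91, a description over arrays that include the 3 that stood apart.

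Of the 8 members other than BMPR1B, 0 were called in NLS-actin cells and 0 in WT-actin relative to parental cells, where 0.131 percent and 0.167 percent of all genes were called by limma (0.0202 percent as higher and 0.111 percent as lower in NLS-actin cells, 0.0405 percent as higher and 0.126 percent as lower in WT-actin cells). At an unadjusted p under 0.05 there was 1 member in each (BMP7 in NLS-actin cells and BMP2 in WT-actin cells), against 6.44 percent and 6.69 percent of all genes, and 3 between the actin lines (BMP2, BMP4 and BMP7), against 9.47 percent. Non-overlapping groups were found for BMP7 as higher in NLS-actin than in parental cells (6.44 percent of all genes), for ACVR2A as higher in WT-actin than in parental cells (4.71 percent), and for BMP2 and BMP7 as higher in NLS-actin than in WT-actin cells (8.12 percent), where 0 of the 8 were lower without overlap (5.73 percent). BMPR1B, lower without overlap in both actin lines against parental cells (7.50 percent of all genes in NLS-actin and 7.60 percent in WT-actin cells), was chosen for its lower signal in WT-actin cells. The methods' thresholds were taken here as an unadjusted p of limma under 0.05 with a fold above 2. At these, BMP7 passed as higher in NLS-actin against parental cells (1.18 percent of all genes) and BMP4 and BMP7 as higher in NLS-actin against WT-actin cells (2.86 percent). As lower, 0 of the 8 passed in any comparison (1.99 percent of all genes in NLS-actin against parental, 2.13 percent in WT-actin against parental and 1.99 percent in NLS-actin against WT-actin cells). Tukey's test at these thresholds, added after seeing the data, gave 0 of the 8 in NLS-actin against parental cells, where 324 of 19775 genes passed. It gave 1 (BMP7) in NLS-actin against WT-actin cells, where 481 passed.

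**Figure D4:**
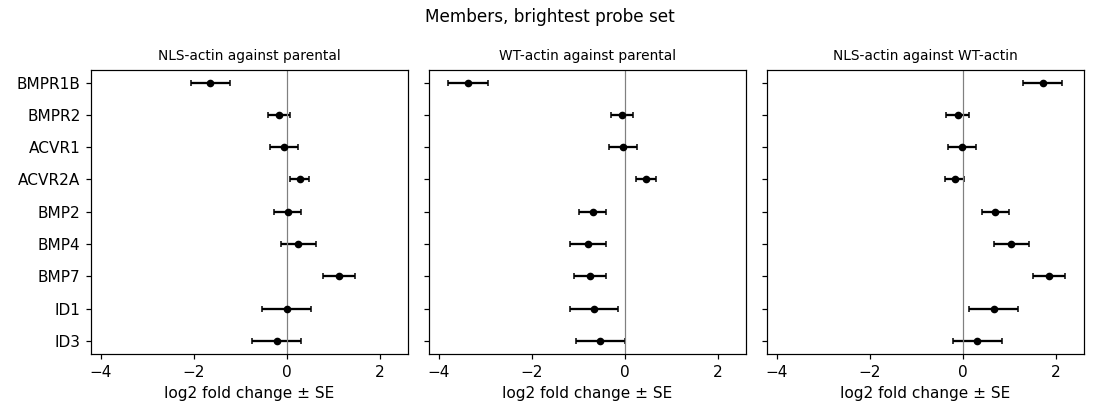
Log2 fold changes of the members between lines, by their brightest probe sets, points being means over 3 arrays a line and bars the standard error from limma; BMPR1B is a description, since it was chosen for these values. BMP7 is at 1.86 in NLS-actin against WT-actin cells, and BMPR2 is at -0.17, -0.06 and -0.11 in the 3 comparisons.

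A further 49 genes of the pathway were examined, of which 47 had a probe set, 25 of them above the median of all probe sets. Among these 47, 1 gene, BAMBI, was called as lower in NLS-actin against parental cells (0.111 percent of all genes were called as lower), and 0 were called in the other comparisons, with 2, 6 and 4 of 47 at an unadjusted p under 0.05 in NLS-actin against parental, WT-actin against parental and NLS-actin against WT-actin cells, where 6.44, 6.69 and 9.47 percent of all genes were at such a p. The median log2 fold change of the 47 genes was 0.06, -0.16 and 0.17 in these comparisons, against -0.0050, -0.06 and 0.03 over all genes. Positive values numbered 26, 16 and 31 of 47.

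BAMBI is a transmembrane pseudoreceptor that resembles type I receptors, lacks their kinase and dampens BMP and TGF-β signals. Its signals (203304_at) were 202.9, 151.6 and 154.5 in NLS-actin cells, 371, 370 and 310.3 in WT-actin cells and 679.8, 405 and 542 in parental cells, so that the 3 lines did not overlap and NLS-actin cells were lowest. The means were 169.7 ± 28.8, 350.5 ± 34.9 and 542 ± 137 (SD, n = 3 each). Of all genes, 7.50 percent were lower without overlap in NLS-actin and 7.60 percent in WT-actin against parental cells. In NLS-actin against WT-actin cells it was 5.73 percent. BAMBI was 3.16-fold lower in NLS-actin than in parental cells, with a log2 fold change of -1.66 (-2.19 to -1.12, limma adjusted p = 0.0264). Between NLS-actin and WT-actin cells the log2 fold change was -1.06 (adjusted p = 0.0962) and between WT-actin and parental cells -0.60 (adjusted p = 0.686). The call held in 11 of 21 alternatives (adjusted p 0.000588 to 0.332) and in 3 of the 9 fits that left out 1 array, with log2 fold changes of -1.85 to -1.48 in those 9. It was lost without any 1 of the NLS-actin arrays, without WT-actin replicate 2, or without parental replicate 1 or 3 (adjusted p 0.0564 to 0.247). Of the other co-receptors above the median signal, RGMB, a membrane-anchored BMP co-receptor, differed by -0.25 in NLS-actin and -0.07 in WT-actin relative to parental cells and was not called.

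The 8 SMADs and SMURF ligases, the intracellular transducers and the enzymes that mark them for degradation, had 6 positive log2 fold changes in NLS-actin cells and 3 in WT-actin relative to parental cells, and none was called. SMAD5, a transducer of BMP receptors, had signals of 4020, 4281 and 3300 in NLS-actin cells, 3068, 2610 and 3461 in WT-actin cells and 2424, 2621 and 2117 in parental cells on its brightest probe set, with NLS-actin arrays above parental arrays (6.44 percent of all genes were higher without overlap). The log2 fold change of 0.69 in NLS-actin against parental cells did not pass (adjusted p = 0.181) and passed with the replicate block within these lines (adjusted p = 0.00623, against 0.00623 to 0.848 over its 21 alternatives). That pairing was chosen from these same arrays, so this pass is no added support. The other 4 SMAD5 probe sets had negative values, from -0.79 to -0.07, so that its direction depended on the probe set. SMAD6, an inhibitory SMAD that is itself induced by BMPs, had signals of 1086, 1161 and 1549 in NLS-actin cells, 1098, 779 and 172 in WT-actin cells and 829, 835 and 365 in parental cells. Its log2 fold change of 1.24 between NLS-actin and WT-actin cells did not pass (adjusted p = 0.513), and it was 0.43 without WT-actin replicate 3, the lowest array. In WT-actin against parental cells SMAD6 was at -0.26, and at 0.55 without that array. With all arrays, its dimmer probe sets were at -0.13 (213565_s_at), -0.20 (209886_s_at) and -1.115 (209887_at) in this comparison. Between NLS-actin and WT-actin cells they were at 0.91, 0.18 and 0.45, and none passed over all probe sets.

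The 7 other BMP target genes (ID2, ID4, HEY1, ATOH8, MSX1, MSX2 and HAMP) had negative log2 fold changes in WT-actin against parental cells in 7 of 7, with a median of -0.59, and positive ones in NLS-actin against WT-actin cells in 7 of 7, with a median of 0.68. In NLS-actin against parental cells 4 were positive and 3 negative, with a median of 0.01. These counts rested on single arrays: without WT-actin replicate 3, 4 of 7 were negative in WT-actin against parental cells (median -0.38) and 5 of 7 positive in NLS-actin against WT-actin cells (median 0.14), and without NLS-actin replicate 2 the last count was also 5 of 7 (median 0.15). In NLS-actin against parental cells 1 of 7 was positive without parental replicate 3 (median -0.11) and 2 of 7 without NLS-actin replicate 2 (median -0.26). ID2, ID4 and HEY1 were highest on the array that stood apart in all 3 lines. These comparisons share arrays, none of the 7 genes was called, and MSX1, ATOH8 and HAMP were dim. HEY1, a transcriptional repressor induced by Notch and by BMPs, had signals of 938, 2348 and 952 in NLS-actin cells, 688, 452 and 619 in WT-actin cells and 1109, 1561 and 843 in parental cells. All WT-actin arrays of HEY1 were below those of both other lines, with a log2 value of 1.15 in NLS-actin against WT-actin cells (adjusted p = 0.216) and of -0.97 in WT-actin against parental cells (adjusted p = 0.583). Of all genes, 8.12 percent were higher without overlap in the first of these comparisons and 7.60 percent lower in the second. ID4, a relative of ID1 and ID3, had signals of 4300, 5877 and 5108 in NLS-actin cells, 4155, 4128 and 1427 in WT-actin cells and 3468, 4204 and 3202 in parental cells, and its log2 fold change of 0.80 between NLS-actin and WT-actin cells did not pass (adjusted p = 0.462). Without WT-actin replicate 3 it was 0.29, and the ID4 value in WT-actin against parental cells was 0.20, against -0.31 with all arrays. With all arrays, its dimmer probe sets were at -0.37 (209292_at), -1.325 (226933_s_at), 0.40 (209293_x_at) and -1.27 (229386_at) in the latter comparison. Between NLS-actin and WT-actin cells they were at 1.72, 1.34, 0.44 and 0.41, and none passed over all probe sets.

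The remaining ligands and the secreted antagonists had no calls. Among 10 other ligands, of which 1 (BMP8B) was above the median signal, 7 log2 fold changes were positive in NLS-actin and 4 in WT-actin relative to parental cells, and BMP8B had 0.06 and -0.39. Of 14 genes listed as secreted antagonists, 7 were positive and 7 negative in each of the 3 comparisons. TWSG1, a BMP-binding modulator, had log2 fold changes of 0.14 in NLS-actin and 0.37 in WT-actin cells (limma adjusted p = 0.702) against the parental line. For SOST, which encodes sclerostin, they were 0.14 and -0.62 (limma adjusted p = 0.846).

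**Figure D5:**
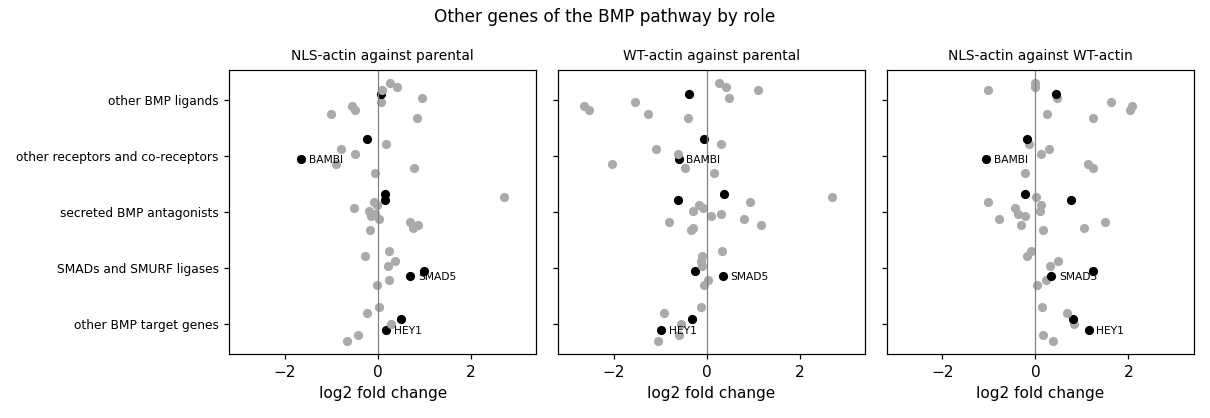
Log2 fold changes of 47 further BMP pathway genes by role in the 3 comparisons, each point a gene by its brightest probe set and the black points BMP8B, BAMBI, RGMB, TWSG1, SOST, SMAD5, SMAD6, HEY1 and ID4, the genes whose values are given by name. The other BMP target genes are below 0 in WT-actin against parental cells and above 0 in NLS-actin against WT-actin cells in 7 of 7 (4 of 7 and 5 of 7 without WT-actin replicate 3), and BAMBI is at -1.66 in NLS-actin against parental cells.

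The genes whose log2 signals followed BMPR1B most closely over the 9 arrays, among 9887 genes above the median, were ANKRD50 (Pearson r = 0.96), ELFN2 (0.96), HLTF (0.94), COX16 (0.94) and GNAI1 (0.94). CPNE8 (-0.98), CADPS2 (-0.93) and REPS2 (-0.92) ran opposite to it. Among the other members the correlation with BMPR1B was highest for BMP2 (0.55) and BMP4 (0.50) and lowest for ACVR2A (-0.57), while ID1 was at 0.41 and ID3 at 0.30. These correlations describe 9 arrays in 3 lines and share the differences between lines that led to the choice of BMPR1B.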

How the data were processed

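RNA of HaCaT cells was hybridized to Affymetrix U133 Plus arrays, and the authors processed the scans with MAS5, so that the deposited values are linear signal intensities per probe set, with no detection calls used here. The genome build is not given in the sources used here. The trimmed mean (2 percent at each end) of an array was 500.041 to 500.058, and signals under 10 made up 25.1 to 31.1 percent of each array. Signals were converted to log2 without offset or filter. The number of arrays limits precision, and the intervals cover the spread between arrays only.

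The 62 control probe sets were left out. Of the other 54613, 41091 had 1 gene symbol, 1801 several and 11721 none listed, and 41043 symbols were updated through Entrez identifiers. Each gene was its brightest probe set, so a gene whose probe sets disagree depends on that choice. The comparisons used limma 3.58.1 under R 4.3.3 (lmFit, eBayes with an intensity trend), in 1 fit over 9 arrays, with Benjamini-Hochberg adjustment over 19775 genes in each of 3 comparisons and a threshold of 0.05. With 3 arrays a side, the smallest p of an exact permutation test is 0.1. All tests were two-sided. The study's methods set a p of 0.05 and a fold of 2 as thresholds, mention no adjustment of the p and name no test for the arrays. The p of these thresholds was taken here as unadjusted. Their general test, Tukey's, was an alternative.

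Replicate numbers were taken to pair NLS-actin and parental arrays, because the residuals of arrays with the same number correlated at 0.23, 0.79 and 0.42, but not WT-actin arrays (-0.08, -0.36 and 0.51 with parental, -0.60, -0.40 and 0.16 with NLS-actin). What a number marks is not stated. NLS-actin replicate 1 with parental replicate 3 correlated more (0.53) than with its own number.

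The members, the 49 further genes and the marker lists were chosen with earlier results of these data known. The named genes are all members, any further gene called, the 2 genes of each role with the smallest unadjusted p above the median signal (1 where only 1 qualified), and the 5 genes most like and 3 least like BMPR1B. Alternatives were quantile normalization, an offset of 8.08, a filter on dim genes, no intensity trend, the replicate block, a fit of 2 lines, the mean of all probe sets, omission of cross-hybridizing probe sets, testing every probe set, Tukey's test, the methods' thresholds, and omission of each array or of the 3 that stood apart. Tukey's test at the methods' thresholds was added after seeing the data. Promoter windows were read from RefSeq tables with Python 3.11.15 and pandas 2.3.3, and figures drawn with matplotlib 3.10.9.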

Additional observations from a re-analysis of the deposited data

Results flagged for a closer look

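BMP7 differed between the actin lines under the same contrast with the parental line: its log2 fold change against parental cells was 1.12 in NLS-actin and -0.75 in WT-actin cells. The difference of these effects, which is the difference between NLS-actin and WT-actin cells, was 1.86 (standard error 0.35, limma adjusted p = 0.0305), and the NLS-actin value was above every WT-actin value in 3 of 3 arrays. In this comparison 8.12 percent of all genes were higher without overlap and 0.389 percent were called as higher. The call of BMP7 held in 3 of the 9 fits that left out 1 array.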

How the results depend on the processing

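Among 8 members other than BMPR1B, the count called between NLS-actin and WT-actin cells was 1, and it was 0 with quantile normalization, without the intensity trend, with 2 lines only and with Tukey's test, 2 at the methods' thresholds and without the 3 arrays that stood apart (BMP4 and BMP7), and 0 to 1 when 1 array was left out. BMP7 lost its call without NLS-actin replicate 1, 2 or 3, WT-actin replicate 2 or 3, or parental replicate 1 (adjusted p 0.0569, 0.073, 0.0683, 0.134, 0.104 and 0.0606). In NLS-actin against parental cells the count was 0, and 1 with the replicate block within these lines and at the methods' thresholds (BMP7 both times). In WT-actin against parental cells it was 0 throughout. For the 47 further genes, the count in NLS-actin against parental cells was 1, and 0 with quantile normalization, without the trend, with 2 lines only and with Tukey's test, 2 with the replicate block within these lines (BAMBI and SMAD5), and 0 to 1 when 1 array was left out; BAMBI lost its call without NLS-actin replicate 1, 2 or 3, WT-actin replicate 2, or parental replicate 1 or 3 (adjusted p 0.0564, 0.0671, 0.142, 0.0682, 0.247 and 0.171). At the methods' thresholds 2 of the 47 genes (BMP3 and BMP5, both dim) passed in WT-actin against parental cells and 3 (BAMBI, SMAD6, HEY1) in NLS-actin against WT-actin cells, where Tukey's test at those thresholds gave 1. The replicate block changed no other call. The cause of these changes was not tested. No named gene with a call reversed. BMPR1B ran from -3.72 to -2.73 in WT-actin and from -1.85 to -0.85 in NLS-actin cells against the parental line over all alternatives.
Over all genes the counts called in NLS-actin against parental, WT-actin against parental and NLS-actin against WT-actin cells were 26, 33 and 144. They were 10, 12 and 76 without the trend, 10, 14 and 82 when the probe sets of a gene were averaged, 4, 8 and 17 with Tukey's test, 324, 316 and 481 with Tukey's test at the methods' thresholds, 627, 600 and 960 with limma at those thresholds, and 4 to 27, 9 to 42 and 66 to 124 when 1 array was left out. With 2 lines only they were 15 in NLS-actin against parental and 67 in NLS-actin against WT-actin cells, and in the first of these comparisons 15 without cross-hybridizing probe sets and 378 with the replicate block within these lines.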

Other observations

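Of 14 secreted BMP antagonists, none of them called between lines, 4 were lowest (NOG, BMPER, FST and TWSG1), 3 highest (SOSTDC1, SOST and DAND5) and 7 mixed on the array of each line that stood apart, and those given with values here were picked after the values were seen. NOG, which encodes noggin, a protein that binds BMP2 and BMP4 and keeps them from their receptors, had signals of 2072, 267 and 2790 in NLS-actin cells, 1302, 3076 and 3198 in WT-actin cells and 1641, 612 and 1880 in parental cells. On the array that stood apart it was at 0.11, 0.42 and 0.35 of the geometric mean of the other arrays of its line in NLS-actin, WT-actin and parental cells. BMPER, a secreted BMP regulator, was at 0.27, 0.63 and 0.46 and FST, the activin antagonist follistatin, at 0.48, 0.86 and 0.58, while TWSG1 was at 0.94, 0.87 and 0.80. SOSTDC1, an antagonist of BMP and Wnt signals, was higher by factors of 5.77, 4.49 and 8.07, at dim signals, SOST by 4.37, 1.37 and 1.19, DAND5 by 1.94, 1.14 and 1.51, and the target gene ID2 by 4.11, 3.13 and 1.59. The SOSTDC1 factor in parental cells rested on a signal of 0.740 on parental replicate 3. The arrays on which ID1, ID2 and ID3 were highest were thus those on which NOG was lowest in each line. Of 47 further pathway genes, 7 were highest and 4 lowest on these arrays in all 3 lines, shares (14.9 and 8.51 percent) close to the 15.5 percent and 9.20 percent of all genes.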
